A study of Mus musculus with 6 samples.

Results

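The genes described here are nuclear genes for subunits of the mitochondrial respiratory chain and of the ATP synthase. They were chosen by the symbol in the array annotation: symbols starting with Ndufa, Ndufb, Ndufc, Ndufs or Ndufv for complex I (the assembly factors named Ndufaf left out), Sdha to Sdhd for complex II, Uqcr for complex III, Cox4 to Cox8 for complex IV and Atp5 for the ATP synthase. Of the 18193 genes with a probe set that carries a single symbol, 82 met this rule, 36 in complex I, 4 in complex II, 8 in complex III, 17 in complex IV and 17 in the ATP synthase. A filter on low signal, a mean of at least 100 over the 6 arrays, was passed by 76 of the 82, which were tested among 9361 genes in all. The RNA came from 3 cultures of parental E0771 cells, an unselected mouse mammary tumour line of the strain C57BL/6, and from 3 cultures of E0771-HML2 cells, hereafter HML2. HML2 is a population selected from the parental line through 2 generations of growth in syngeneic mice, in each of which cells injected into the mammary fat pad were recovered from the lung. Both groups were grown for 3 days in DMEM with 10% fetal bovine serum and antibiotics, without other treatment, and total RNA was hybridised to Affymetrix Mouse Genome 430 2.0 arrays, 1 array per culture. HML2 is 1 selected population, and the labels do not say whether its cultures came from different animals, so a p-value here speaks of the spread among these cultures only, and their number limits the precision. In RNA from whole cultures, fewer cells of a kind and less RNA per cell cannot be told apart.

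The respiratory chain passes electrons from nutrients to oxygen in the inner mitochondrial membrane. Complex I takes them from NADH and complex II from succinate, ubiquinone carries them to complex III, cytochrome c carries them to complex IV, and complex IV reduces oxygen to water. Complexes I, III and IV pump protons, and the ATP synthase lets the protons flow back through its membrane part, Fo, to drive the synthesis of ATP by its head, F1. Most subunits are encoded in the nucleus, translated in the cytosol and imported, while a few of the most hydrophobic ones are encoded in mitochondrial DNA. Tumour cells differ widely in how far they rely on this system or on glycolysis.

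Every array had been scaled to the same mean signal, 500 after trimming 2% at either end, and the share of probe sets at a signal of 100 or more was 39.7% to 41.6%. The 3' to 5' ratio of the Gapdh control probe sets was 0.770 to 0.816 over the 6 arrays (exact two-sided permutation p = 0.7 between the groups). That of beta-actin was 1.41 to 1.53 on the parental and 1.36 to 1.39 on the HML2 arrays (exact two-sided permutation p = 0.1, the smallest p that 3 against 3 arrays allow). Of 9 mammary epithelial markers, only Krt8 and Epcam passed the filter; the keratin gene Krt8 was higher in HML2 (1095 ± 60.3 in parental and 4175 ± 649.8 in HML2 cells, mean ± SD of 3 arrays, as for all values written so), Epcam had lower signals in HML2 and was not called (133 ± 24.5 in parental and 83.5 ± 15.0 in HML2 cells, adjusted p = 0.12), and the defining markers Cdh1, Krt5 and Krt14 had mean signals of 8.53 to 58.5 in either group, beside 1.97 to 36.2 for bacterial control probe sets. Ptprc, Pecam1, Sftpc and Adipoq, which define leukocytes, endothelium, alveolar type II cells and adipocytes, had means of 5.24 to 44.7 and none was tested. The summed signal of 9 leukocyte markers was 578 to 766 on parental and 789 to 932 on HML2 arrays, with opposite calls among them: Cd14 was higher (236 ± 69.4 in parental and 498 ± 49.1 in HML2 cells, adjusted p = 0.010) and Lyz2 lower (192 ± 28.9 in parental and 78.9 ± 8.29 in HML2 cells, adjusted p = 0.0074). The sum of 6 endothelial markers was 109 to 210.1 and 159 to 185, that of 7 lung epithelial markers 208 to 284 and 186 to 301, and that of 4 adipocyte markers 49.8 to 125 and 115 to 179. The summed signal of 9 striated muscle markers was 1299 to 1680.0 on parental and 333 to 406 on HML2 arrays, mostly from the muscle creatine kinase gene Ckm (1227 ± 223 in parental and 169.5 ± 33.6 in HML2 cells), and that of 8 fibroblast markers was 2599.7 to 4603 and 1235 to 2181. Of the 2 fibroblast markers tested, Pdgfra was called lower, with a difference of HML2 minus parental of -1.09 on the log2 scale (adjusted p = 0.0052). The other, Pdgfrb, was not called (-1.18, adjusted p = 0.053). The part of all these cell type markers in the values below was not tested. Set against the average of its 2 fellow HML2 arrays, HML2 replicate 1 was lower by at least 0.5 on the log2 scale in 11% and higher in 14.5% of all tested genes, so the members that depart most on that array are also given without it.

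Subunit genes that differed between the lines went both ways, by less than 1 on the log2 scale. At an adjusted p below 0.05 (limma with Benjamini-Hochberg adjustment over all 9361 genes), 6 members were higher and 9 were lower in HML2, and 61 were not called. The called members made up 19.7% of the 76, where 27.2% of all tested genes were called. The share called higher was 7.89% of members beside 12.3% of all tested genes, and the share called lower was 11.8% beside 14.9%. The arrays of the groups did not overlap for 34.2% of members and for 44.4% of all tested genes. Differences are given as HML2 minus parental in log2(signal + 50), a scale that understates the change of dim genes. The median difference was 0.02 over the members and -0.02 over all tested genes, and the median of its size, sign left aside, was 0.17 and 0.30. The extremes among the members were Ndufb3 at -0.86 and Ndufa9 at 0.46, so that none reached a difference of 1 in size, which 8.71% of all tested genes did. Among the 6307 tested genes outside the members with a mean log2 value of at least 8.97, the 5th percentile of the members,, 28.1% were called and the median size was 0.29. Of the 61 members not called, 42 lay within 0.2 of zero.

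How many members passed the threshold moved with the fit, and the sign of no called member changed in any setting tried. With the replicate number as a block, which lowers the error where arrays of the same number deviate together, 12 members were higher and 15 lower; these 27 included all 15 called without it and were 35.5% of the members, beside 37.4% of all tested genes. Quantile normalization gave 3 higher and 11 lower members (18.4% beside 27.2%), and centring each array on its median gave 8 higher and 4 lower (15.8% beside 27.1%). Leaving out parental replicate 1 left 3 higher and 6 lower (11.8% of members beside 18.5% of all tested genes), and leaving out parental replicate 2 or 3 left 1 and 4 (6.58% beside 20.3% and 14.8%). Leaving out HML2 replicate 2 left 2 and 6 (10.5% beside 20.4%), and HML2 replicate 3 left 1 and 4 (6.58% beside 17.9%). Without HML2 replicate 1 there were 7 higher and 12 lower, 25% of the members beside 36.6% of all tested genes.

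**Figure D1:**
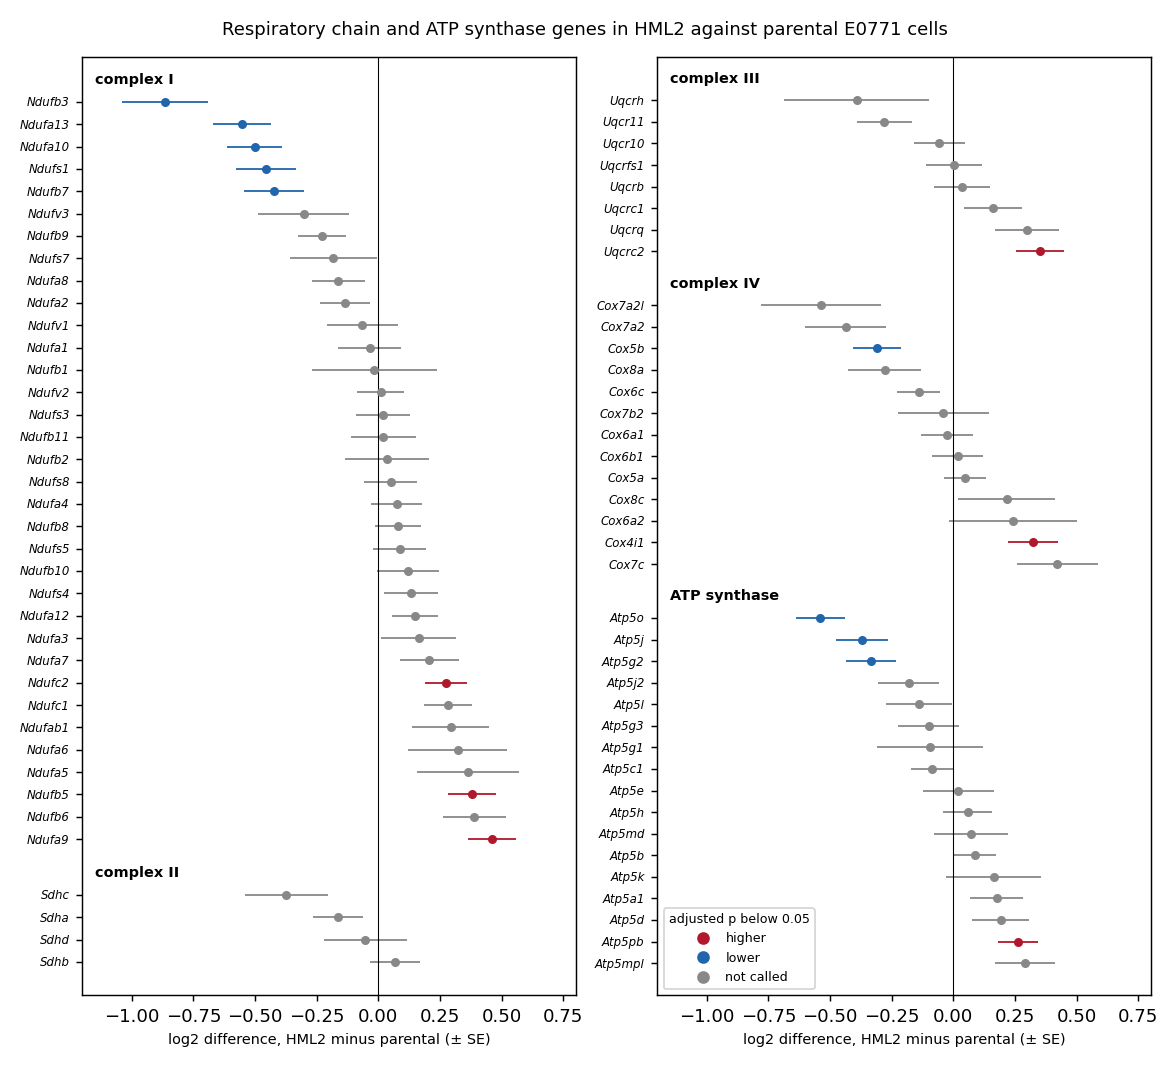
Difference between HML2 and parental cells for each of the 76 tested members, by complex; the horizontal axis is the difference in log2(signal + 50) and the line through each point is ± 1 standard error of the fit over 3 arrays per group. The 6 members called higher (red) and the 9 called lower (blue) lie on both sides of zero, and most of the 61 others (grey) lie within 0.2 of it.

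The promoters of these genes have been studied as targets of the nuclear factors NRF1, GABPA (the DNA-binding part of nuclear respiratory factor 2) and YY1, whose letters were searched here on both strands of RefSeq promoter windows of 300 bases (250 before a gene's start and 50 after; build GRCm38.p6). Windows were found for 67 of the 82 members, 72 windows in all. The NRF1 letters, GCGCA and GCGC with any base between them, stood in 22.2% of the members' windows, in 4.6% of all 32851 windows and in 11.1% of the windows of tested genes. The GABPA letters CCGGAAG stood in 23.6%, 8.86% and 19.5% of the same 3 sets, and the YY1 letters AAGATGGCG in 8.33%, 1.4% and 3.38%. The letters of the estrogen-related receptors, TCAAGGTCA, stood in 2.78%, 0.423% and 0.264%, and the Sp1 letters GGGCGG in 41.7%, 35.7% and 65.1%. Such matches describe the letters of a window and do not show that a factor binds there.

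A few of the members called lower show the range of these windows, with the bases before the start printed 5′ to 3′ in the direction of the gene and matches of the NRF1, GABPA or YY1 letters in capitals. Atp5g2 (chr15:102671048-102671297, minus strand) holds a match of the NRF1 letters 42 bases before the start, Ndufb7 (chr8:83566508-83566757, plus strand) holds one of the GABPA letters, and 1 of the 2 windows of Atp5j (chr16:84834977-84835226, minus strand) holds one of the YY1 letters followed by one of the GABPA letters. Ndufb3 (chr1:58586147-58586396, plus strand), the member with the widest difference, holds none of the 3.
Atp5g2: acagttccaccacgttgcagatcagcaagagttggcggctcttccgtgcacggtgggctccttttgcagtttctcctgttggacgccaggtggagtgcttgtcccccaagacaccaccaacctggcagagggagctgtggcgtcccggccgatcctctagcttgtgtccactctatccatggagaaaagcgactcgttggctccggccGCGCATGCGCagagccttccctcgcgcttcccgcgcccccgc
Ndufb7: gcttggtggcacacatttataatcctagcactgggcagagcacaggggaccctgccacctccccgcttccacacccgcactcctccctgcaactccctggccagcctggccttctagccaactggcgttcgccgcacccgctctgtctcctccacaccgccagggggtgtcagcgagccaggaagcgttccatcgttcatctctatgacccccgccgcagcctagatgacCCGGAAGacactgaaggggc
Atp5j: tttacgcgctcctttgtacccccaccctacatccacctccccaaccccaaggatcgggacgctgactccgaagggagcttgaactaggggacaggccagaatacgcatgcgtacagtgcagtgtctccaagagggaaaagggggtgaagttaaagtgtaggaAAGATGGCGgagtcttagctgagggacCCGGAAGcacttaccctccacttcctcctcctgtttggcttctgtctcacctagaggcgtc
Ndufb3: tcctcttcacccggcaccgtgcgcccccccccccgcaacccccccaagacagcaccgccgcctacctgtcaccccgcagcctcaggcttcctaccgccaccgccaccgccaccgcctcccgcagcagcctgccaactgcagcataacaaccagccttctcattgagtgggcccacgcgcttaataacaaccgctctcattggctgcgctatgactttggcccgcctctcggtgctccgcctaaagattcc
Called members occurred with and without these letters. The 14 tested members with the NRF1 letters had a median difference of -0.04, with 0 called higher and 2 lower, and the 49 without them one of 0.02, with 4 higher and 6 lower. For the GABPA letters the medians were 0.02 over 17 members with them and 0.02 over 46 without. For the YY1 letters they were -0.02 over 6 members, among them Ndufa9 (called higher) and Atp5j (called lower), and 0.02 over 57.

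Complex I, the NADH dehydrogenase and the largest of the complexes, held 8 of the 15 called members: 3 higher and 5 lower of 34 tested, or 23.5%. The median difference was 0.04, and on single arrays the median of the 34 members relative to the parental mean was 0.05, 0.00 and -0.07 on parental replicates 1 to 3 and -0.02, 0.13 and 0.05 on HML2 replicates 1 to 3, so that the groups overlapped. The catalytic core, which carries the flavin and the iron-sulfur clusters, is represented by Ndufs1, Ndufs3, Ndufs7, Ndufs8, Ndufv1 and Ndufv2. Of these 6, Ndufs1 was lower and the other five were not called, with differences of -0.18 to 0.05. Among the 28 members outside the core, 3 were higher and 4 lower. Apart from Ndufa4, counted here by its symbol alone, they are accessory subunits, which surround the core and are needed for its assembly and stability.

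Ndufb3, an accessory subunit of the membrane arm, fell most of all members. Its signal was 3579, 3739.5 and 3259 on parental replicates 1, 2 and 3 and 1451, 2115 and 2269 on HML2 replicates 1, 2 and 3. All HML2 arrays lay below all parental ones, and HML2 replicate 1 was the lowest. The mean signal in HML2 was 0.552 of the parental mean, a difference of -0.86 ± 0.17 (SE), adjusted p = 0.0076.

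Ndufa13, also known as GRIM-19, is an accessory subunit that sits between the arms of the complex. It had signals of 10263, 9706 and 8376 in parental and 6981, 6496 and 5777 in HML2 cells, in the order of replicates 1, 2 and 3 that is kept throughout. The groups did not overlap, and the difference was -0.55 ± 0.12 (SE), adjusted p = 0.010. Ndufa10, an accessory subunit of the membrane arm, had 8788, 10429 and 8976 in parental and 7112, 6693 and 6067 in HML2 cells, with the parental array nearest to HML2 still well above all 3 of them. It fell by 0.50 on the log2 scale (SE 0.11, adjusted p = 0.012). Ndufs1, the large core subunit that carries several iron-sulfur clusters, had 4103, 4681 and 4832 in parental and 3027, 3202 and 3660.3 in HML2 cells, again without overlap (-0.46 ± 0.12 SE, adjusted p = 0.025). Ndufb7, an accessory subunit on the intermembrane side, had 6678, 8051 and 7783 in parental and 4956, 5815 and 5989.8 in HML2 cells (-0.42 ± 0.12 SE, adjusted p = 0.033), and its second probe set gave -0.34.

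On the other side, Ndufa9, an accessory subunit at the junction of the arms, was the member that rose most. Its signals were 5237, 5585 and 5687 in parental and 7350.3, 8016 and 7399 in HML2 cells. The spread within each group was small beside the gap between them, and the difference was 0.46 ± 0.10 (SE), adjusted p = 0.0094. Ndufb5, of the membrane arm, had 5772, 5511 and 5119 in parental and 7114, 7253 and 6994 in HML2 cells (0.38 ± 0.10 SE, adjusted p = 0.021), and Ndufc2, whose product lies in the membrane arm too, had 9834, 9914 and 9866 and 12395, 12078 and 11441 (0.28 ± 0.09 SE, adjusted p = 0.043). In both the lowest HML2 array was above the highest parental array, and their other probe sets gave 0.44 for Ndufb5 and 0.29 and 0.30 for Ndufc2. Ndufb3, Ndufa13 and Ndufa9 were called in each of the 6 fits that left out 1 array. Ndufa10 was not called without HML2 replicate 3 (adjusted p = 0.052), Ndufs1 not without parental replicate 2, parental replicate 3 or HML2 replicate 2 (0.076, 0.11 and 0.076), and Ndufb7 and Ndufb5 not without replicate 2 or 3 of either group (0.057 to 0.12 and 0.050 to 0.099). Ndufc2 lost its call in all 6 (0.059 to 0.13). No left-out array turned a sign.

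The remaining 26 complex I members were not called, from Ndufv3 at -0.30 to Ndufb6 at 0.39. The arrays of the groups did not overlap for 6 of them: Ndufb9 and Ndufa2 had lower signals in HML2, and Ndufb8, Ndufs4, Ndufc1 and Ndufb6 higher ones. With the called members, 14 of the 34 in complex I did not overlap, beside 44.4% of all tested genes. Dimmer probe sets past the filter went the other way for Ndufb8 (-0.24) and Ndufs4 (-0.42 and -0.06). Those of Ndufb9, Ndufc1 and Ndufb6 had the same sign as the brighter one. Ndufb6, the one nearest to the threshold, had 4776, 4224 and 5017 in parental and 6971, 5402 and 6079.9 in HML2 cells (adjusted p = 0.053). With the replicate block, Ndufv3 and Ndufb9 were called lower (adjusted p = 0.034 and 0.031) and Ndufc1, Ndufab1, Ndufa6 and Ndufb6 higher (0.025, 0.036, 0.038 and 0.012). Ndufb4 was not tested, since the probe set that carries its symbol alone was near background (19.5 ± 17.4 in parental and 22.6 ± 2.55 in HML2 cells). Ndufab1 encodes the mitochondrial acyl carrier protein, which is a subunit of complex I and also serves fatty acid synthesis. Its dimmer probe sets past the filter went both ways (0.33, -0.33 and -0.37).

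**Figure D2:**
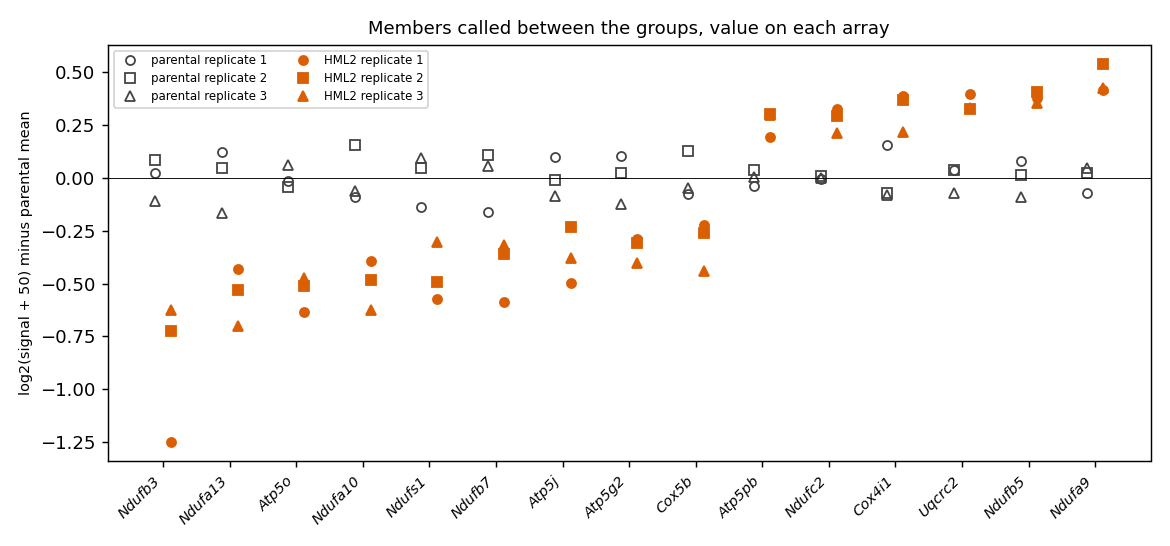
The 15 called members on each of the 6 arrays, as log2(signal + 50) minus the mean of the 3 parental arrays; open symbols are parental and filled symbols HML2 cultures, and the shape gives the replicate number. For each gene all 3 HML2 points lie on one side of all 3 parental points, and HML2 replicate 1 of Ndufb3 stands farthest from zero.

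Complex II, succinate dehydrogenase, also belongs to the citrate cycle and has 4 nuclear subunits. None of the 4 was called by limma, none had an unadjusted p below 0.05, and the median difference was -0.11. Sdha, the flavoprotein that oxidises succinate, had signals of 4989.5, 4801 and 4967 in parental and 4179, 4678 and 4317 in HML2 cells. All 3 HML2 arrays lay below the parental ones, by a difference of -0.16 ± 0.10 (SE), adjusted p = 0.26. Sdhb, the iron-sulfur subunit, had 6982, 6684 and 6127 and 7207, 7071 and 6468 (0.07 ± 0.10 SE, adjusted p = 0.66), and the membrane anchor Sdhd had 2711, 3156 and 2868 and 2151, 3238 and 3146 (-0.05 ± 0.17 SE, adjusted p = 0.85); both overlapped between the groups. The other anchor, Sdhc, had 1278, 1003 and 999.9 in parental and 1007, 724 and 777 in HML2 cells, where replicate 1 was the highest array of each group. Its difference was -0.37 ± 0.17 (SE), adjusted p = 0.14, it was called lower with the replicate block (adjusted p = 0.041) and without HML2 replicate 1 (-0.51, adjusted p = 0.022), and its second probe set gave -0.48.

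Complex III, the cytochrome bc1 complex, had 1 called member of 8 (12.5%) and a median difference of 0.02. Uqcrc2, a core protein of the matrix side, rose: it had 5174, 5176 and 4787 in parental and 6649, 6336 and 6358 in HML2 cells. The groups were far apart beside their spread (0.35 ± 0.10 SE, adjusted p = 0.028), and the second probe set gave 0.24. The call held without HML2 replicate 1 and was lost in the other 5 fits with 1 array left out, at adjusted p = 0.055 to 0.12. The partner core protein Uqcrc1 had a difference of 0.16 ± 0.12 (SE), adjusted p = 0.35, and the Rieske iron-sulfur protein gene Uqcrfs1, which carries out the oxidation of ubiquinol, one of 0.00 ± 0.11 (SE), adjusted p = 0.98. Uqcrb, a small subunit near the ubiquinone site, had 19234, 22421 and 20704 and 19017, 24532 and 20578 (0.03 ± 0.11 SE, adjusted p = 0.85). Cyc1, the cytochrome c1 gene of the same complex that the symbol rule leaves out, gave 0.18 ± 0.12 (SE), adjusted p = 0.31. Uqcr10, another small subunit, had a difference of -0.06. With the replicate block, Uqcr11 was called lower (-0.28, adjusted p = 0.030) and Uqcrq higher (0.30, adjusted p = 0.036). Uqcrh, the hinge protein that helps cytochrome c dock, had 11739.5, 9954 and 9157 in parental and 4561, 11544 and 8959 in HML2 cells. HML2 replicate 1 was far below the other five arrays, also on its second probe set (2195 beside 5479 to 6288), and the difference of -0.39 was -0.01 without that array.

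Complex IV, cytochrome c oxidase, had 1 member higher and 1 lower of 13 tested (15.4%), with a median difference of -0.03. Cox4i1, the ubiquitous form of subunit 4, which stabilises the complex and binds regulatory nucleotides, had 14881, 12685 and 12596 in parental and 17436, 17248 and 15514 in HML2 cells. Parental replicate 1 came close to HML2 replicate 3 without reaching it, and the difference was 0.32 ± 0.10 (SE), adjusted p = 0.044. Cox5b, a zinc-binding subunit of the matrix side, moved the other way, with 17805, 20481 and 18133 in parental and 16093, 15636 and 13806 in HML2 cells (-0.31 ± 0.10 SE, adjusted p = 0.048); its 3 other probe sets gave -0.39 to -0.29. Each was called in 1 of the 6 fits that left out an array, Cox4i1 without parental replicate 1 and Cox5b without HML2 replicate 1, and had adjusted p = 0.061 to 0.16 and 0.077 to 0.16 in the others. Cox6a1, the ubiquitous form of subunit 6a, had 28518, 28374 and 24678 and 29028, 27855 and 23412, with replicate 3 the lowest of each group and a difference of -0.03 ± 0.11 (SE), adjusted p = 0.88.

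Several complex IV subunits exist in forms with different tissue patterns. Cox7a2, the ubiquitous form, had 15176, 15387 and 14092 in parental and 8286, 13098 and 12190.2 in HML2 cells. The groups did not overlap, HML2 replicate 1 was the lowest array, and the difference was -0.44 ± 0.16 (SE), adjusted p = 0.081, called lower with the replicate block (adjusted p = 0.028). Without HML2 replicate 1 the difference was -0.23 (adjusted p = 0.087), and without HML2 replicate 2 it was -0.56 (adjusted p = 0.047). Its relative Cox7a2l had 9828, 6224 and 6676 in parental and 7328, 4070.2 and 4453 in HML2 cells. Replicate 1 was the highest array of each group, so that the groups overlapped, yet each HML2 array was below the parental array of its number. The difference of -0.54 had an adjusted p of 0.14 without and 0.0023 with the replicate block, was -0.79 (adjusted p = 0.0080) without HML2 replicate 1, and was -0.53 and -0.52 on the other probe sets. Cox7a1, the form of heart and skeletal muscle, was not tested (43.2 ± 11.2 in parental and 45.2 ± 12.5 in HML2 cells).

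Cox8a, the ubiquitous form of subunit 8, had 7197, 6924 and 6413 in parental and 7051, 5254 and 4826 in HML2 cells. HML2 replicates 2 and 3 were below all parental arrays and HML2 replicate 1 was not, and the difference was -0.28 (adjusted p = 0.20), or -0.44 without HML2 replicate 1 (adjusted p = 0.0096). The muscle form Cox8b was not tested (9.11 ± 7.67 in parental and 10.6 ± 7.68 in HML2 cells), and Cox8c, a form of testis, passed the filter narrowly (110.3 ± 28.6 in parental and 135 ± 16.1 in HML2 cells) and was not called (adjusted p = 0.45). Of subunit 6, the muscle form Cox6a2 also passed narrowly (95.2 ± 37.9 in parental and 120.3 ± 35.7 in HML2 cells) and was not called (adjusted p = 0.52), Cox6b1 had a difference of 0.02 ± 0.10 (SE), adjusted p = 0.91, and the testis form Cox6b2 was not tested (41.1 ± 12.7 in parental and 38.4 ± 24.5 in HML2 cells). Cox4i2, a form of subunit 4 found in lung and raised by low oxygen in some cells, was not tested either (66.9 ± 19.2 in parental and 39.5 ± 8.75 in HML2 cells; the arrays overlapped). Ndufa4, which the symbol rule counts with complex I although its product is a subunit of complex IV, had 8209, 8644 and 8022 and 8017, 9659 and 8605 (0.08 ± 0.10 SE, adjusted p = 0.63). Its relative Ndufa4l2, a target of the hypoxia-inducible factor HIF-1, was near background (15.9 ± 8.44 in parental and 16.2 ± 7.59 in HML2 cells). The remaining tested members, Cox5a, Cox6c, Cox7b2 and Cox7c, were not called, with differences from -0.14 to 0.42. The groups did not overlap for Cox6c, with the lower signals in HML2, but did on its second probe set (0.01). Nor did they overlap for Cox7c, with the higher signals in HML2. Its probe set was dim (126 ± 10.8 in parental and 185 ± 11.0 in HML2 cells).

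The ATP synthase had 1 member higher and 3 lower of 17 tested (23.5%), with a median difference of 0.02. Its catalytic head F1, from the genes Atp5a1, Atp5b, Atp5c1, Atp5d and Atp5e, held no called member of 5 by limma, none with an unadjusted p below 0.05, and differences of -0.08 to 0.19, with Atp5d called higher with the replicate block (adjusted p = 0.044). All 4 called members belonged to the other 12 genes, which encode the membrane part Fo, the stalk and associated proteins. Atp5o, the OSCP subunit that joins F1 to the peripheral stalk, fell most. It had 7148, 7016 and 7556 in parental and 4651, 5059.9 and 5198 in HML2 cells, with every HML2 array far below every parental one. The difference was -0.54 ± 0.10 (SE), adjusted p = 0.0053, and it was called in each fit with 1 array left out. Its second probe set gave -0.32, and the mean of both was not called (-0.43, adjusted p = 0.082).

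Atp5j, coupling factor 6 of the same stalk, had 10469.9, 9685 and 9200.4 in parental and 6918, 8314 and 7489.5 in HML2 cells, without overlap (-0.37 ± 0.11 SE, adjusted p = 0.034). Atp5pb, the b subunit that forms the length of the stalk, went the other way, with 14870.5, 15689 and 15333 in parental and 17506, 18835 and 18793 in HML2 cells (0.26 ± 0.08 SE, adjusted p = 0.042) and 0.39 on its second probe set. So of 3 called genes of the peripheral stalk, 2 fell and 1 rose. Another stalk gene, Atp5h, had a difference of 0.06 ± 0.10 (SE), adjusted p = 0.71. Atp5j was called without HML2 replicate 1 or 2 and had adjusted p = 0.074 to 0.11 without any of the other arrays; Atp5pb was called without HML2 replicate 1 and had adjusted p = 0.067 to 0.13 without any of the others.

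The c subunit, whose ring turns in the membrane as protons pass, is made from 3 genes with the same mature protein. Atp5g2 had 9861, 9314 and 8431 in parental and 7505, 7402 and 6936 in HML2 cells. The groups did not overlap and the difference was -0.33 ± 0.10 (SE), adjusted p = 0.039, a call that held without HML2 replicate 1 and was lost without any other array (adjusted p = 0.061 to 0.13). Atp5g1 had 4520.1, 6113 and 5017 and 3415, 5964 and 5589 (-0.09 ± 0.21 SE, adjusted p = 0.78), and Atp5g3 18622, 21125 and 18122 and 15599, 21173 and 17559 (-0.10 ± 0.12 SE, adjusted p = 0.59). Both overlapped, and both had HML2 replicate 1 as their lowest array; without it the difference was 0.16 for Atp5g1 (adjusted p = 0.39) and 0.00 for Atp5g3 (adjusted p = 0.99). A second, dim probe set of Atp5g1 had signals of 166 to 183 in parental and 10.4 to 52.2 in HML2 cells, so that the mean of both probe sets was called lower (-0.82, adjusted p = 0.0084) while the brighter one was not. The other tested genes of the ATP synthase outside F1, Atp5j2, Atp5l, Atp5md and Atp5mpl, had differences of -0.18 to 0.29 and were not called over all arrays. Atp5mpl, whose groups did not overlap, was called higher without HML2 replicate 1 (0.38, adjusted p = 0.023).

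Among subunit genes, only the widest departures of HML2 replicate 1 went mostly one way. Its median departure from the mean of replicates 2 and 3 was -0.01 over the 76 members and 0.01 over all tested genes. By at least 0.5 on the log2 scale, 10 of the 76 members were lower on replicate 1 than on the mean of replicates 2 and 3, and 1 was higher. These are 13.2% and 1.32% of the members, beside the 11% and 14.5% of all tested genes. The 10 were Uqcrh, Ndufb1, Ndufa5, Atp5g1, Atp5k, Ndufs7, Cox7a2, Ndufb2, Ndufb3 and Sdhd, and the 1 was Cox7a2l. Without HML2 replicate 1, the difference of Sdhd went from -0.05 to 0.13, that of Ndufs7 from -0.18 to 0.02, that of Ndufb1 from -0.02 to 0.28 and that of Ndufb2 from 0.04 to 0.23, none of them called, while Ndufb3 was still called lower (-0.67, adjusted p = 0.0016). Ndufa5, an accessory subunit of the matrix arm, had 2608, 3015 and 3201 in parental and 2657, 4508 and 4516 in HML2 cells, and Atp5k, the e subunit of the ATP synthase, had 6306, 6745 and 5806 and 5038, 8590.4 and 8046. In both, HML2 replicates 2 and 3 were above all parental arrays and replicate 1 among or below them. Their differences were 0.36 and 0.16 over all arrays and 0.61 (adjusted p = 0.0034) and 0.40 (adjusted p = 0.015) without that array.

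Of the 9 lower members, 6 are encoded on chromosomes 1 and 16, by the positions of RefSeq GRCm38.p6. Chromosome 1 carries 5 tested members, and 4 of them, Ndufb3, Ndufa10, Ndufs1 and Cox5b, were lower; the fifth, Sdhc, had a difference of -0.37. The 516 other tested genes of chromosome 1 had a median of -0.31, with 34.3% called lower and 4.07% higher. Both members of chromosome 16, Atp5o and Atp5j, were lower, and the 300 other tested genes there had a median of -0.42, with 40.7% lower and 1.67% higher. The 7 tested members of these 2 chromosomes thus held 6 of the 9 lower ones, where the same chromosomes carry 8.79% of all tested genes and 21.9% of all genes called lower. Over the 69 members elsewhere the median difference was 0.04, with 6 higher and 3 lower.

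Of the 3 members on chromosome 3, Ndufb5 and Atp5pb were higher and Ndufc1 had a difference of 0.28, beside a median of 0.20 and 24.2% called higher among the 447 other tested genes there. Ndufa9 lies on chromosome 6, where the others had a median of 0.09 and 20.2% were higher. The remaining called members lay on chromosomes whose other genes had medians between -0.08 and 0.02. On chromosome 8, Ndufa13 and Ndufb7 were lower and Cox4i1 higher, beside a median of 0.02. On chromosome 7, Ndufc2 and Uqcrc2 were higher beside -0.04, and on chromosome 15 Atp5g2 was lower beside -0.08. The part of chromosome position in the calls was not tested.

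**Figure D3:**
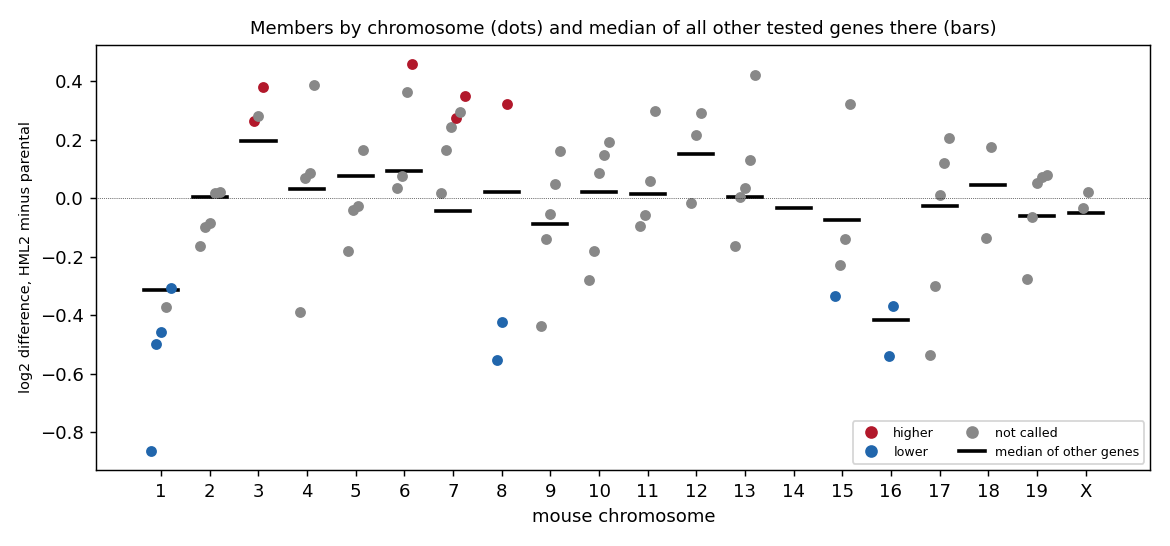
Difference in log2(signal + 50), HML2 minus parental, of each tested member by the chromosome that carries it (dots, coloured by call), with the median over all other tested genes of that chromosome (black bars). Members of chromosomes 1 and 16 lie below zero together with the bars at -0.31 and -0.42, and those of chromosome 3 lie above zero with the bar at 0.20.

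Genes outside the symbol rule, mostly of mitochondria and energy supply, were followed in 10 lists. These include ND5 and Cyc1, which are themselves subunit genes of the chain. Of 44 tested assembly factors, which insert cofactors and put subunits together, 8 were higher and 2 lower, with a median of 0.08 (all tested genes: -0.02, with 12.3% higher and 14.9% lower). Ndufaf4 (2772 ± 513 in parental and 4655 ± 699 in HML2 cells), Tmem126a (4757 ± 118 in parental and 7657 ± 542 in HML2 cells) and Ndufaf3 (324 ± 65.7 in parental and 528 ± 28.5 in HML2 cells), all factors of complex I, rose by 0.74, 0.68 and 0.64, and Sdhaf4, a factor of complex II, fell (-0.66 ± 0.20 SE, adjusted p = 0.040). Tmem126a was called in all 6 fits with 1 array left out, Ndufaf4 in 4, and Ndufaf3 and Sdhaf4 in 2 each. The only tested subunit encoded in mitochondrial DNA, ND5 of complex I, had 5825, 7226 and 7354 in parental and 9278, 7024 and 9193 in HML2 cells (0.32 ± 0.15 SE, adjusted p = 0.14).

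Among 17 genes of electron carriers and ubiquinone synthesis, 5 were higher and 2 lower, with a median of 0.28. The shares over all tested genes were 12.3% higher and 14.9% lower. Dhodh, which feeds electrons from pyrimidine synthesis into ubiquinone, rose from 461, 462 and 349 to 929, 770.9 and 872 (0.94 ± 0.16 SE, adjusted p = 0.0036). Pdss2 and Coq4 of ubiquinone synthesis rose by 0.66 and 0.65, cytochrome c itself, Cycs, by 0.46 (15789 ± 1685 in parental and 21663 ± 405 in HML2 cells), and Coq10b, a ubiquinone-binding protein, fell (-0.56 ± 0.15 SE, adjusted p = 0.024). With 1 array left out, Dhodh and Cycs were called in all 6 fits, Coq4 in 5, Coq10b in 2 and Pdss2 in 1.

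Regulators of mitochondrial gene expression and DNA copying had 5 higher and 1 lower of 21 tested, with a median of 0.30. Of all tested genes, 12.3% were higher and 14.9% lower. The regulators include Nrf1, Yy1 and Gabpa, whose letters were searched in the promoters above. Nrf1 had 221, 333 and 303 in parental and 579, 489.8 and 502 in HML2 cells, without overlap (0.78 ± 0.18 SE, adjusted p = 0.012), and Yy1 had 4122, 3709 and 3965 and 6206, 6901 and 7722 (0.81 ± 0.12 SE, adjusted p = 0.0018); both were called in each fit with 1 array left out. Gabpa was not called (3015 ± 387 in parental and 2507 ± 86.4 in HML2 cells; -0.25 ± 0.13 (SE), adjusted p = 0.17). Mterf1a, Ssbp1 and Tfam, which act on mitochondrial DNA, rose by 0.65, 0.53 and 0.40, while Tfb2m, a factor of mitochondrial transcription, fell (-0.56 ± 0.15 SE, adjusted p = 0.025). With 1 array left out, Ssbp1 was called in all 6 fits, Tfb2m in 4, Mterf1a in 2 and Tfam in 1. The coactivator genes Ppargc1a and Ppargc1b were near background, at 19.3 ± 26.0 in parental and 27.7 ± 6.73 in HML2 cells and at 4.24 ± 2.12 in parental and 5.24 ± 3.03 in HML2 cells.

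The mitochondrial ribosome, which translates the subunits encoded in mitochondrial DNA, had 17 genes higher and 4 lower of 76 tested, with a median of 0.24 beside 0.02 for the same number of chain subunits. Over all tested genes, 12.3% were higher and 14.9% lower. Mrpl47 (1291 ± 141 in parental and 3797 ± 106 in HML2 cells), Mrps10 (1712 ± 142 in parental and 3953 ± 1042 in HML2 cells) and Mrpl24 (756 ± 48.4 in parental and 1624 ± 81.2 in HML2 cells) rose by 1.53, 1.16 and 1.05, and Mrps6 fell (-1.01 ± 0.16 SE, adjusted p = 0.0030). The part of chromosome position in these calls was not tested either. In the list of cristae and import proteins, 4 were higher and 1 lower of 30, with a median of 0.12. With the replicate block 10 were higher and 2 lower, where 37.4% of all tested genes were called. Timm10, Tomm34, the chaperone Hspa9 and the receptor Tomm20 rose by 0.65, 0.52, 0.50 and 0.37. The 4 genes of the ribosome and Tomm20 were called in all 6 fits with 1 array left out, Timm10 and Tomm34 in 5 and Hspa9 in 3.

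Among transcripts of fuel supply, called genes went both ways, as did all tested genes (12.3% higher and 14.9% lower). Of 18 genes of the citrate cycle and pyruvate use, 2 were higher and 4 lower (median 0.06): Pcx, which makes oxaloacetate from pyruvate, fell (402 ± 107 in parental and 116.3 ± 45.4 in HML2 cells; -1.45 ± 0.26 (SE), adjusted p = 0.0045), as did the isocitrate dehydrogenase subunit Idh3g (-0.68 ± 0.09 SE, adjusted p = 0.0012), and Dlst of the oxoglutarate dehydrogenase complex and the pyruvate carrier Mpc1 rose by 0.97 and 0.48. Of 19 glycolysis genes, 2 were higher and 2 lower, with a median of -0.00. The glucose transporter Slc2a3 rose from 515, 874 and 437 to 2521, 1570.1 and 1572 (1.58 ± 0.27 SE, adjusted p = 0.0040) and the lactate transporter Slc16a1 by 0.50, while Pdk1, which holds back pyruvate dehydrogenase, and Pfkm fell (-0.67 and -0.57). With 1 array left out, Pcx, Idh3g, Dlst, Slc2a3 and Slc16a1 were called in all 6 fits, Pdk1 in 5, Mpc1 in 3 and Pfkm in 1. Limma called none of the 7 genes of adenylate exchange and coupling (3 had an unadjusted p below 0.05), among them the phosphate carrier Slc25a3 (-0.12) and the exchanger Slc25a5 (0.15); with the replicate block 2 were higher and 2 lower. Of the 13 tested genes of the vacuolar ATPase, a related rotary enzyme outside mitochondria, limma called 0 (3 had an unadjusted p below 0.05). Atp6v1c1 stood at 0.07 and Atp6v1g1 at 0.03, and with the replicate block 1 gene was higher and 1 lower. Of all tested genes, limma called 27.2% without and 37.4% with that block.

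**Figure D4:**
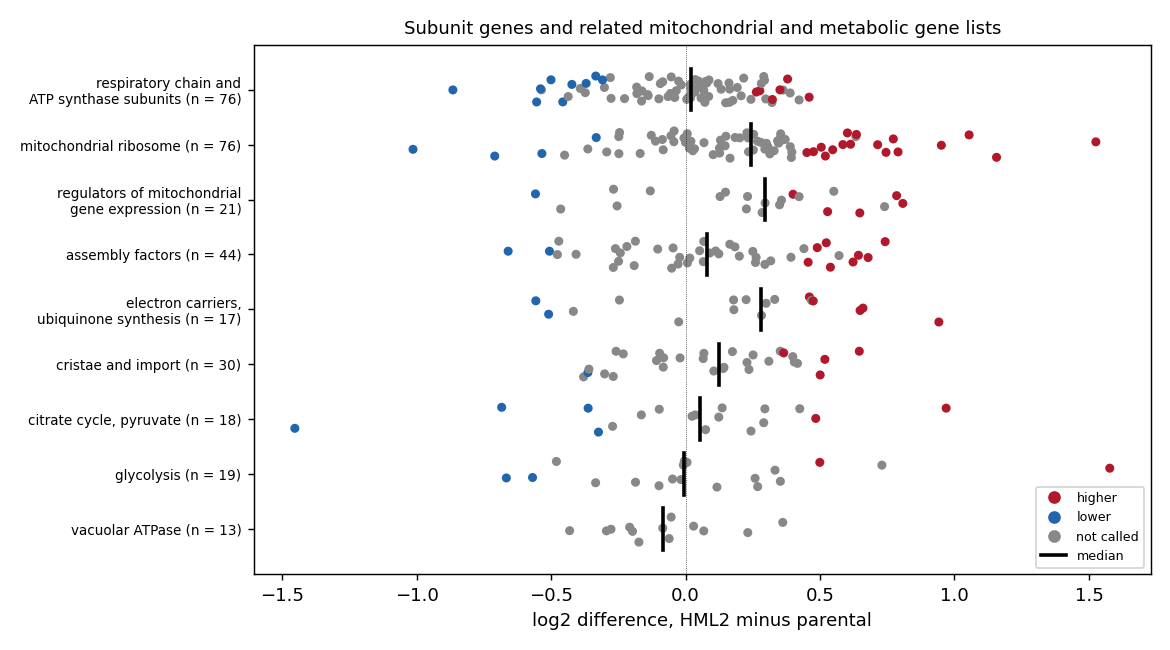
Differences in log2(signal + 50), HML2 minus parental, of the 76 tested subunit genes and of genes in 8 related lists; each dot is a gene, coloured by its call, and the black bar is the median of the list. The subunits have a median of 0.02, while the mitochondrial ribosome (0.24) and the regulators of mitochondrial gene expression (0.30) have medians above zero.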

How the data were processed

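Total RNA of 6 mouse cell cultures was measured on Affymetrix Mouse Genome 430 2.0 arrays. The deposited table holds intensities on a linear scale, a signal for each probe set on each array; the submitters' processing notes name MAS5 as the authors' tool, and its version is not given in the sources used here. The table gave 45101 probe sets, of which 34945 carried 1 symbol in the platform annotation and 932 several; only the former were used, so 10 probe sets that pair a subunit symbol with another one were left out. Symbols were updated by gene ID through the RefSeq table of GRCm38.p6, which also gave chromosomes and promoter windows.

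Signals were analysed as log2(signal + 50). A mean signal of 100 was the lower limit for a probe set, the one with the highest mean log2 value stood for its gene, and lmFit and eBayes with an intensity trend (limma 3.58.1, R 4.3.3) compared 3 HML2 with 3 parental arrays without covariates. Benjamini-Hochberg adjustment ran over the 9361 genes. The scaling to a common mean hides any difference in total messenger RNA. Probe sets of the types s_at and x_at can also match related transcripts, which applies to Ndufa13, Ndufc2, Cox5b and Atp5pb among the called members. Alternatives were other offsets, filters, normalizations, probe set rules, variance models and weights, a replicate block, and each array left out in turn.

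Arrays with the same replicate number deviated together from their group means (correlations of 0.45, 0.34 and 0.24 over the tested genes). The reported fit did not use these numbers as pairs, and the fit with the replicate block, which did, is given beside it. The labels do not say what a number stands for, and parental replicate 2 and HML2 replicate 3 also had a correlation of 0.24. The members, lists and alternatives were chosen with earlier results of these data known, so counts and medians of lists are descriptions without a test. The rule for naming took up to 6 called members of each complex by size of difference, filled up to 3 by the brightest, all forms of subunits with several forms, up to 4 called genes of each related list, filled up to 2 by the brightest, and the brightest marker of each cell type. Of the genes it selects, Kdr, Sftpb and Retn are given only within their lists' sums. Other genes (among them Ndufb5, Ndufc2, Sdhc, Uqcrc1, Uqcrfs1, Atp5h, Ndufa5, Atp5k, Cyc1, Cycs, Epcam, Lyz2, Gabpa, Ssbp1 and Tfam) were chosen for naming once values were known, to complete the roles in a complex.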

Additional observations from a re-analysis of the deposited data

How the results depend on the processing

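No setting changed the sign of a called member. The median difference of all members stayed between -0.02 and 0.06. Against 6 members higher and 9 lower in the reported fit, there were 3 and 5 without a filter on low signals and 3 and 5 with eBayes without a trend, 3 and 11 with quantile normalization, 8 and 4 with median centring, and 14 and 15 with array weights, where the share of all tested genes called was 11.9%, 26.2%, 27.2%, 27.1% and 54% (members: 9.76%, 10.5%, 18.4%, 15.8% and 38.2%); the cause was not tested, except that the unfiltered fit adjusted over more genes. Pairing the arrays by replicate number (replicate block) gave 12 and 15, and ended no call of a member. It gave 4, 12 and 2 called genes in the adenylate exchange, cristae and import, and vacuolar ATPase lists in place of 0, 5 and 0. Of all tested genes, 37.4% were called with the block. Leaving out 1 array at a time gave 1 to 7 members higher and 4 to 12 lower. The median of complex IV, -0.03, was -0.090 with a minimum mean signal of 200 and -0.057 to 0.051 with 1 array left out, and that of the ATP synthase, 0.02, was -0.046 with quantile normalization and -0.077 to 0.059 with 1 array left out. Over a part of the members named here, 397 values under an alternative stayed on their side of the threshold, 71 lost the call and 10 gained it. This tally leaves out members that gained a call: the replicate block alone gave 12 higher and 15 lower in place of 6 and 9. Signals near background limit what can be said of Ndufa4l2, Ndufb4, Cox4i2, Cox6b2, Cox7a1 and Cox8b.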
